A study of Mus musculus with 12 samples.

Results

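The 4 genes that outer hair cells use for electromotility, calcium buffering and their efferent input, Slc26a5, Ocm, Chrna9 and Chrna10, were followed along the mouse cochlea. They were picked by gene name, and every probe on the array that carried 1 of these names was taken, which gave 31 of 165865 probes and 4 of 19505 genes. Slc26a5 had 17 probes, Ocm 4, Chrna9 5 and Chrna10 5. All samples came from male C57BL/6 mice aged 6 weeks, and the labels name no treatment or engineered allele in any group. The cochleae of 4 mice were cut into an apical, a middle and a basal turn, and each turn gave 4 samples, each hybridized to an array of its own. A sample held the whole dissected turn, with organ of Corti, lateral wall and, per the study's methods, spiral ganglion neurons, so outer hair cells made up only part of the tissue. The comparison asks how the level of these genes differed between the apex, where low frequencies are received, and the base, where high frequencies are received.

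Outer hair cells amplify sound by changing their length as their membrane potential changes. Slc26a5 encodes prestin, the motor protein in the lateral membrane that drives this length change and a member of the SLC26 anion transporter family. Ocm encodes oncomodulin, a small EF-hand calcium-binding protein that in the cochlea is known as a marker of outer hair cells. Chrna9 and Chrna10 encode the alpha9 and alpha10 subunits of the nicotinic acetylcholine receptor through which medial olivocochlear neurons inhibit the outer hair cell. Calcium that enters through this receptor opens the potassium channel SK2, encoded by Kcnn2.

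On the 12 arrays, 77.4% to 81.4% of the spots stood well above background, none was saturated, and replicate arrays of a turn correlated at 0.991 to 0.995 over all genes. Values are fluorescence intensities brought to a common 75th percentile, and a gene's signal is the mean of its probes on the log2 scale. A gene was called different between 2 turns when the p-value of that contrast in limma, a linear model fitted to all genes and adjusted over all of them, was under 0.05. The number of arrays limits the precision of every value. The arrays of a turn shared 1 slide and no slide held 2 turns, so turn and slide cannot be told apart. The study describes the samples of a turn as independent, but the labels do not tie the sample numbers to single mice, so p-values measure the spread between these samples. In bulk tissue, fewer cells of a type and less RNA per cell cannot be told apart.

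Slc26a5, the motor gene, had the largest difference of the 4 between apex and base, except that it came level with Ocm under another background correction, given with the comparison of the members. Its signal on the 4 apical arrays was 354, 420, 333 and 282, with a mean of 347 ± 57.2 (SD, n = 4). On the middle arrays it was 207, 213, 224 and 201, a mean of 211 ± 10.1 (SD, n = 4). On the basal arrays it was 46.9, 28.4, 55.6 and 55.1, a mean of 46.5 ± 12.7 (SD, n = 4). Every apical array lay above every middle array, and every middle array lay far above every basal array, while the lowest basal array stood well below the others. The apical signal exceeded the basal signal 7.65-fold, a log2 difference of 2.94 with a standard error of 0.19 and a 95% confidence interval of 2.51 to 3.36 (limma, adjusted p = 1.7e-06). By size of this difference, Slc26a5 ranked at position 10 of the 19505 genes. However, 10 of its 17 probes were not well above background on all basal arrays. Its fold was 3.39 with another background correction (limma's normexp, which also added 50 to each signal). The middle turn exceeded the base by 2.23 log2 units (adjusted p in limma 4.7e-05), which placed the gene at position 6. The apex exceeded the middle turn by only 0.70 log2 units (adjusted p in limma 0.040). That last call was lost in 7 of the 12 fits that each left out 1 array, namely apical replicate 1, 2 or 3, middle replicate 1, 2 or 4, or basal replicate 1 (0.61 to 0.72 log2 units, adjusted p up to 0.112).

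Ocm, the calcium buffer, showed the same order of turns on all arrays. Its signal was 14406, 15992, 13430 and 12004 on the apical arrays, 9011, 9301, 10651 and 9600 on the middle arrays, and 3658, 2488, 4189 and 4765 on the basal arrays. The turn means were 13958 ± 1677, 9641 ± 715 and 3775 ± 970 (SD, n = 4 each), and no array of 1 turn overlapped with those of another. The apex exceeded the base 3.78-fold, or 1.92 log2 units with a standard error of 0.17 (limma, adjusted p = 1.3e-05), and the middle turn exceeded the base by 1.39 log2 units. The apex and the middle turn differed by 0.53 log2 units, which did not pass the test (limma, adjusted p = 0.067). It passed in the fits without basal replicate 2 (adjusted p = 0.015) and without basal replicate 4 (adjusted p = 0.048), which left the difference itself as it was.

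Chrna9, the receptor's alpha9 subunit, read 241, 280, 249 and 219 on the apical arrays. The middle arrays gave 176, 139, 175 and 174, and the basal arrays 77.3, 61.1, 81.2 and 68.9. The 3 turn means were 248 ± 25.3, 166 ± 17.8 and 72.1 ± 8.94 (SD, n = 4 each), again with no overlap. In the middle turn, 3 arrays lay close together and replicate 2 lay below them. The apex exceeded the base 3.44-fold (1.78 log2 units, standard error 0.11, adjusted p in limma 1.1e-06), the apex exceeded the middle turn by 0.58 log2 units (adjusted p = 0.0098), and the middle turn exceeded the base by 1.20 log2 units.

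Chrna10, the alpha10 subunit that assembles with alpha9, read 166, 187, 166 and 150 on the apical arrays. The middle arrays gave 90.7, 107.01, 112 and 137, and the basal arrays 43.9, 43.6, 46.9 and 51.3. The means were 167 ± 15.4, 112 ± 19.3 and 46.4 ± 3.57 (SD, n = 4 each). The turns did not overlap, although the highest middle array came close to the lowest apical one. The apex exceeded the base 3.60-fold (1.85 log2 units, standard error 0.12, adjusted p in limma 1.2e-06). The apex stood 0.60 log2 units above the middle turn (adjusted p = 0.011), and the middle turn stood 1.25 log2 units above the base.

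All 4 genes were thus called for apex over base and for middle turn over base, and each of these 8 differences was 2-fold or more. All 8 stayed called under the other settings tried, but the sizes of the receptor subunits did not all stay at 2-fold. With normexp, the apex exceeded the base by 0.89 log2 units for Chrna9 and 0.99 for Chrna10, and the middle turn exceeded it by 0.58 and 0.74. With spike-in scaling, the middle turn exceeded the base by 0.93 and 0.98. With the mean of linear probe signals, the middle turn over base was 1.27-fold for Chrna9, and normexp lowered that of Slc26a5 from 4.70-fold to 2.37-fold. Of all genes, 17.6% were called for apex over base and 11.6% for middle turn over base, and differences of 2-fold or more that passed limma's F test over the 3 turns made up 3.27% and 2.2%. Between apex and middle turn, 3 of the 4 were called, against 4.42% of all genes, and the differences stayed under 2-fold, a size that 0.297% of all genes reached. In the opposite direction, 21.6% of all genes were called for base over apex, 9.23% for base over middle turn and 7.61% for middle turn over apex. Arrays without overlap, found for the 4 members in each comparison, were found for 16.9% of all genes for apex over base, 7.3% for apex over middle turn and 12.5% for middle turn over base.

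**Figure D1:**
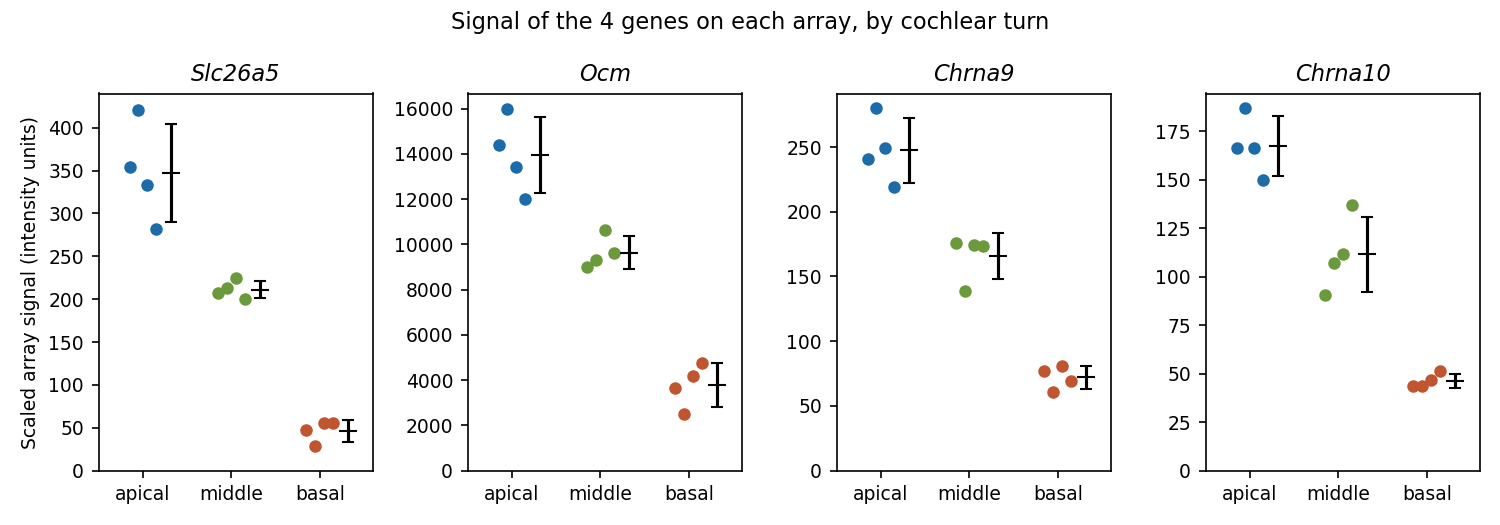
Scaled signal (intensity units, linear axes from 0) of Slc26a5, Ocm, Chrna9 and Chrna10 on each of the 12 arrays by cochlear turn. Points are arrays in order of sample number, and the bars beside them give the mean and SD of 4 arrays. In each panel the apical points lie above the middle points and these above the basal points, with the widest separation for Slc26a5 (347 in the apex, 46.5 in the base).

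On turn means, the step from middle to base exceeded the step from apex to middle for every member. On the log2 scale, the middle turn lay 76.0% of the way from base to apex for Slc26a5, 72.4% for Ocm, 67.5% for Chrna9 and 67.8% for Chrna10. Over the 638 genes with a called apical excess of 2-fold or more, the median was 84.1% and the middle 50% of genes ran from 60.1% to 95.3%, so the members lay within that range. Within the apex, replicate 2 was the highest array and replicate 4 the lowest for all 4 genes, and in the base replicate 2 was the lowest for all 4. The mean of 20 genes shared by inner and outer hair cells was also lowest in basal replicate 2, where it read 6.20 on the log2 scale against 6.49 to 6.62 on the other basal arrays. Without that array, the apical to basal difference was 2.72 log2 units for Slc26a5 and 1.73 for Ocm.

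The single exon probes show how evenly this difference ran along each transcript. A probe is named here by its position in the transcript, in bases, and its genome position is given on mm9. Of the 31 probes, 30 were called for apex over base (limma over all probes, of which 18% were called), 29 for middle turn over base (7.76% of all probes) and 8 for apex over middle turn (3.04%). The sequences shown are of the Slc26a5 probe with the highest apical signal and of the one with the smallest fold, of an Ocm probe as an example of an even transcript, and of 2 neighbouring Chrna9 probes that behaved differently.
Slc26a5 probe 1479, chr5:21326853-21326912, minus strand: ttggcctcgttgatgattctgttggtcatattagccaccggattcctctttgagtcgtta
Slc26a5 probe 1758, chr5:21322757-21322816, minus strand: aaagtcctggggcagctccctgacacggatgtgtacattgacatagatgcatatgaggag
Ocm probe 251, chr5:144785309-144785368, minus strand: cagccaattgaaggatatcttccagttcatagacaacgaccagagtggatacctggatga
Chrna9 probe 328, chr5:66358691-66358750, plus strand: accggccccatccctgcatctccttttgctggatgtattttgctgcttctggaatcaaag
Chrna9 probe 424, chr5:66359057-66359116, plus strand: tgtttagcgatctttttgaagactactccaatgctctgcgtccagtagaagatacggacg
None of the 31 probes shared a run of 18 bases, on either strand, with an array probe of another gene.

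The 17 probes of Slc26a5, which span chr5:21316891-21353160 on the minus strand, all pointed the same way. Their apical to basal folds ran from 4.17 to 10.9 with a median of 8.22. Probe 1479 read 886, 1040, 884 and 737 in the apex and 138, 96.1, 149 and 136 in the base, a 6.87-fold difference. Probe 1758, with the smallest fold, read 426, 470, 391 and 341 in the apex and 100, 65.4, 108 and 124 in the base. Only 7 of the 17 probes were well above background on all 4 basal arrays. Those 7 had folds of 4.17 to 8.02, and the other 10 had folds of 8.11 to 10.9. The normexp correction, which gave the gene its lower fold, replaced the scanner software's subtraction of background and added 50 to each corrected signal. Such an offset lowers the folds of dim signals more than those of bright ones. Its share in the lower fold was not tested.

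The 4 Ocm probes, at chr5:144780676-144786575 on the minus strand, were well above background on all 12 arrays and had nearly equal folds, 3.65 to 3.85. The 5 Chrna9 probes, at chr5:66358691-66368509 on the plus strand, were far apart. Probe 328 read 1470, 1446, 1385 and 1337 on the apical arrays, 1430, 1306, 1398 and 1490 on the middle arrays, and 1458, 1421, 1489 and 1260 on the basal arrays. Its turns overlapped, and its apical to basal difference was 0.0043 log2 units (95% confidence interval -0.15 to 0.16), the 1 member probe that was not called. Probe 424, the next in the transcript, read 65.7, 111, 94.6 and 77.7 in the apex and was not well above background on any basal array. With basal signals raised at least to the lowest signal well above background on their array, it was 3.15-fold higher in the apex. Probe 629 differed 3.71-fold between apex and base, with 1 of the 4 basal arrays well above background, and probe 1018 differed 1.82-fold. Probe 1727 differed 7.58-fold, with 690 to 935 in the apex and 80.0 to 128 in the base. Without probe 328 the gene's apical to basal difference was 2.23 log2 units. Why probe 328 stayed level was not tested.

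The 5 Chrna10 probes, at chr7:109259781-109265107 on the minus strand, were all called for apex over base. Probe 2452 read 1817 to 2706 on the apical arrays, 1401 to 1687 on the middle arrays and 275 to 482 on the basal arrays, and differed 5.91-fold between the ends of the cochlea. Probe 1230 differed 2.85-fold and probe 542 differed 4.01-fold. Probe 698 was not well above background on any basal array, and probe 120 on no array at all. With basal signals raised at least to the lowest signal well above background on their array, probe 698 was 3.28-fold higher in the apex. The 95% confidence interval of its measured difference began at 1.28 log2 units. The 2 receptor subunits are paralogs, and 1 pair of their probes fell on the same part of the coding sequence, with 45 of 60 bases identical. The pair is shown aligned without gaps, with the bases that differ in capitals.
Chrna9 probe 629, chr5:66360449-66360508, plus strand: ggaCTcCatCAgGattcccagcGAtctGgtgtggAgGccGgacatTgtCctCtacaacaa
Chrna10 probe 698, chr7:109262739-109262798, minus strand: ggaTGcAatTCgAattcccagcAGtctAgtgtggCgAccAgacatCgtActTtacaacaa
No other pair of a Chrna9 and a Chrna10 probe matched at more than 23 of 60 bases. Both probes of the pair were higher in the apex. The gene Art1 overlaps Chrna10 on the opposite strand, and the array holds 3 Art1 probes. Art1 itself read 48.9 to 53.4 on apical, 39.3 to 55.1 on middle and 23.4 to 29.0 on basal arrays. Whether the labeled RNA of 1 gene reached the probes of the other was not tested.

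**Figure D2:**
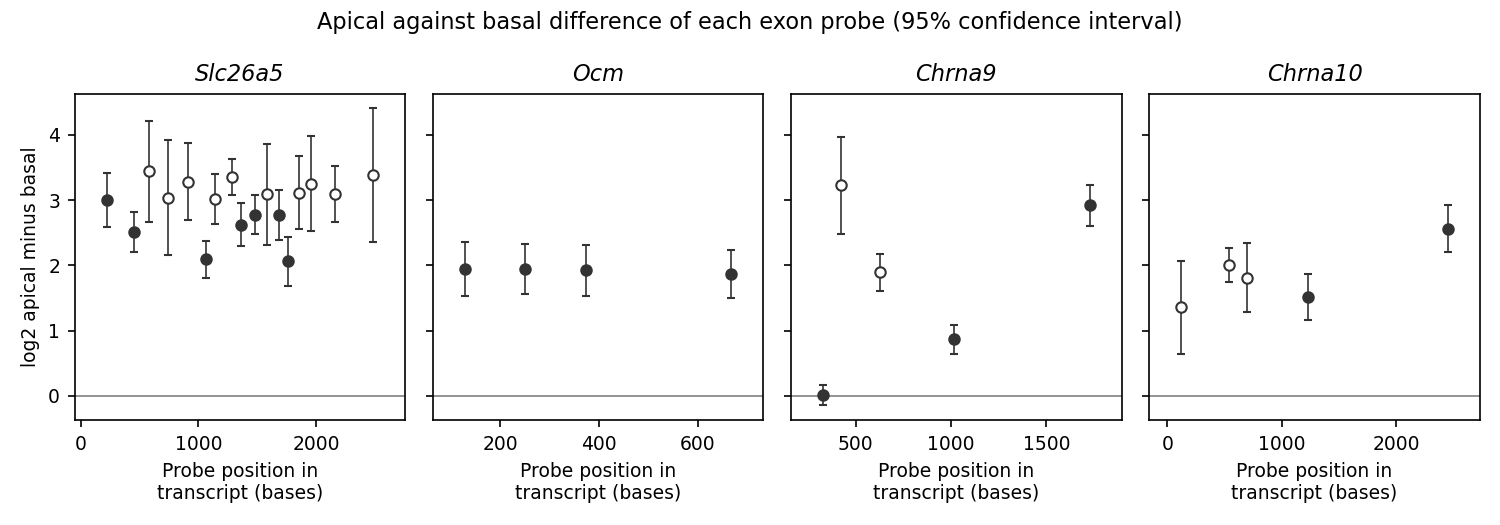
Apical minus basal difference (log2) of each exon probe against its position in the transcript (bases), with 95% confidence intervals from limma. Filled points were well above background on all 4 basal arrays and open points were not, so the height of an open point depends on the background subtraction. All 31 points lie at or above 0, and the Chrna9 probe at position 328 is the 1 point whose interval includes 0 (0.0043).

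Whether the 4 genes changed by the same amount was tested within arrays, as the difference of 2 genes' log2 values on the same array, which is independent of the array's scaling. From apex to base, Slc26a5 changed more than Ocm by 1.02 log2 units, more than Chrna9 by 1.15 and more than Chrna10 by 1.09. In each of these 3 pairs the apical and basal arrays did not overlap, and the exact permutation test gave p = 0.0286, the smallest that 4 against 4 arrays allow. Adjusted over the 6 pairs, p was 0.0571. The normexp background correction, with its offset of 50, turned the difference between Slc26a5 and Ocm to -0.13 (exact p = 0.40). With it, Slc26a5 still exceeded Chrna9 by 0.87 log2 units. The other pairs overlapped: 0.14 log2 units between Ocm and Chrna9 (exact p = 0.49), 0.07 between Ocm and Chrna10 (exact p = 0.94), and -0.07 between Chrna9 and Chrna10 (exact p = 0.46). These 3 depended on how probes were corrected and averaged. With normexp, Ocm changed more than Chrna9 by 1.00 and more than Chrna10 by 0.90 log2 units, and with the mean of linear signals Ocm minus Chrna9 was 1.26, Ocm minus Chrna10 -0.47 and Chrna9 minus Chrna10 -1.72 (exact p = 0.0286 for each). The 2 subunits' values on the same array kept a steadier distance in the apex (SD 0.023 log2 units, n = 4) than in the middle turn (SD 0.28, n = 4) or the base (SD 0.20, n = 4). The comparison of the subunits changed with the level Chrna9 probe. Without it, Chrna9 fell more than Chrna10 toward the base, by 0.38 log2 units. That probe was picked because it was level in these data, and leaving it out could only raise the difference of Chrna9. The value is therefore a description and not a test.

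Genes that inner and outer hair cells share served as a reference on the same array. Of 21 such genes listed, among them the motor myosin Myo7a and the transcription factor Pou4f3, 20 were measured, and their mean log2 value was 7.40 ± 0.094 for apical, 7.16 ± 0.041 for middle and 6.48 ± 0.19 for basal arrays (SD, n = 4 each). This mean fell by 0.92 log2 units from apex to base, so the hair cell genes as a group moved with the members. Set against it on each array, Slc26a5 still exceeded its basal level by 2.01 log2 units in the apex, Ocm 0.99, Chrna9 0.86 and Chrna10 0.92. With normexp the values were 1.29, 1.42, 0.42 and 0.52, so that Slc26a5 no longer led Ocm. For each of the 4 genes the apical and basal arrays did not overlap on this relative scale (exact permutation test, p = 0.0286 for each, also after adjustment over the 4). The reference's own values did not overlap between turns. A gene level across the turns would therefore also separate on this scale, in the other direction. The share of all genes without overlap on this scale was not determined. The apex against the middle turn gave 0.46 for Slc26a5, 0.28 for Ocm, 0.33 for Chrna9 and 0.35 for Chrna10, again without overlap (exact p = 0.0286 for each). Of these 4, 3 had an exact p under 0.05 with quantile normalization or the mean of linear signals, and 2 with the median of probes or with Lhfpl5 alone as the reference.

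The outcome depended on the genes chosen for this reference. Of the 20, 3 were not called between apex and base, namely Myo6 (-0.11 log2 units), Barhl1 (-0.013) and Espnl (-0.008). Such level genes lower the reference's own difference and so raise that of the members against it. Gene by gene, Slc26a5 changed more than all 20 hair cell genes, without overlap between apical and basal arrays in any of the 20 pairs. Ocm, Chrna9 and Chrna10 each changed more than 18 of the 20, without overlap in 15, 14 and 16. The 2 genes that changed more than these 3 were Ptprq, a phosphatase of the hair bundle (1.99 log2 units), and Grxcr1, a hair bundle protein (1.97), which had no probe well above background on all basal arrays. Relative to Lhfpl5, a subunit of the mechanotransduction complex that itself differed by 1.62 log2 units, Slc26a5 remained higher in the apex but the others stood only 0.30, 0.16 and 0.23 log2 units higher (Ocm, Chrna9 and Chrna10, exact p = 0.11, 0.34 and 0.37). For Chrna9 the relative difference was 0.0012 with the median of its probes (exact p = 1) and -0.13 with the mean of linear signals (exact p = 0.14), and without probe 328 it was 1.30.

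**Figure D3:**
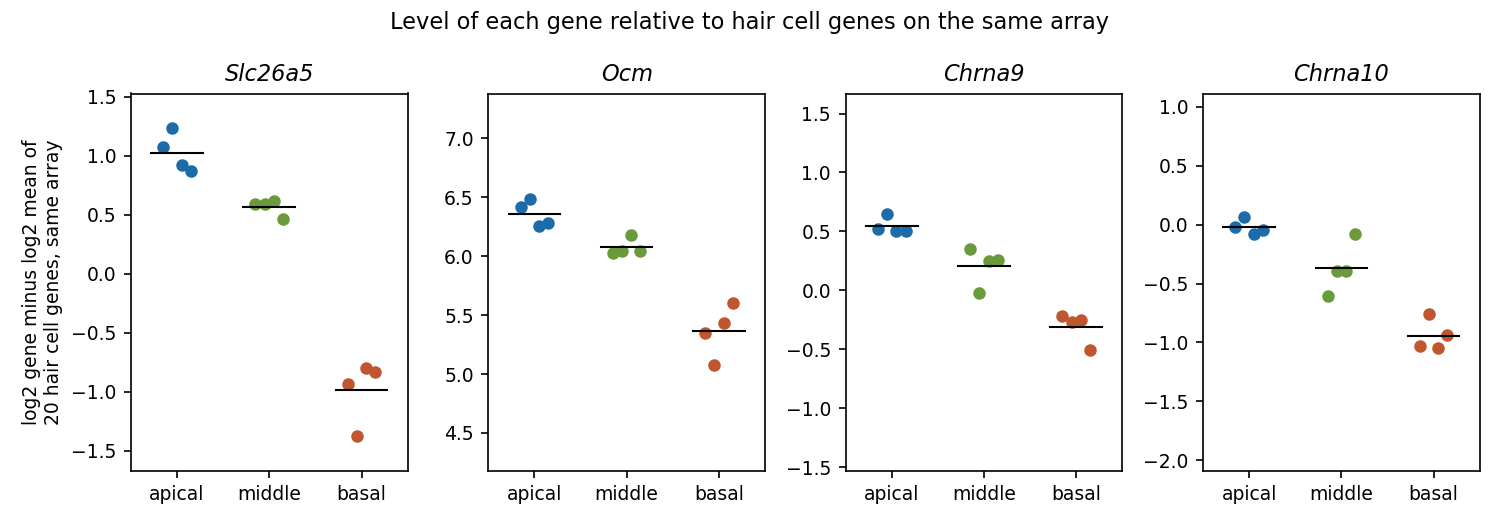
Log2 signal of each gene minus the mean log2 signal of 20 hair cell genes on the same array, by turn. Points are arrays, lines are means of 4 arrays, and all panels span the same number of log2 units on the vertical axis. For each gene the 4 apical points lie above the 4 basal points, with a difference of means of 2.01 for Slc26a5 and 0.86 to 0.99 for the other genes.

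Relatives and partners of the members did not share one direction. Among the 8 other Slc26 transporters measured, 0 were higher in the apex (limma, and also 0 at an unadjusted p under 0.05), 1 was higher in the base and 7 did not pass the test, with a median difference of -0.06 log2 units beside -0.04 over all genes. With the arrays scaled to spike-in probes, which moved the median of all genes to -0.52, all 8 were called for base over apex (median -0.54). Slc26a4, which encodes pendrin, the anion exchanger of the lateral wall, read 2426 in the apex and 2589 in the base (adjusted p = 0.43 in limma). Among 14 other nicotinic subunits, 3 were higher in the apex, 1 was higher in the base and 10 did not pass, and the median was -0.03 (with spike-in scaling 1, 10 and 3, median -0.52). The 3 were Chrnb2 (1.22 log2 units), the muscle-type subunit gene Chrna1 (0.73) and Chrna7 (0.67), and the 1 that was higher in the base was Chrna4 (-0.40). At 1.78 and 1.85 log2 units, Chrna9 and Chrna10 lay above all 14, although Chrna9 came to 0.64 when the linear signals of its probes were averaged. Normexp lowered both, Chrna10 to 0.99. Several of the 14 were too dim to show a fold well. In each turn, 0 of 4 Chrna5 probes and 1 of 5 probes each of Chrna3 and Chrnb3 were well above background on all arrays. Chrna7 read 26.9 in the apex and 16.9 in the base.

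Of 13 genes of the efferent synapse, 6 were higher in the apex, 3 were higher in the base and 4 did not pass. Between apex and middle turn, 0 of the 13 were called for the apex and 2 for the middle turn. Kcnn2, the potassium channel that acts together with the alpha9 and alpha10 receptor, ran against the receptor: its mean signal was 544 on apical, 673 on middle and 1002 on basal arrays, a difference of -0.88 log2 units between apex and base (standard error 0.070, adjusted p in limma 5.7e-06). Kcnma1, which encodes the large-conductance calcium-activated potassium channel BK, was higher in the apex by 0.78 log2 units. Ache, the enzyme that breaks down acetylcholine, and Atp2b2, the calcium pump of hair bundles, were higher in the apex by 1.45 and 1.39. Rapsn, which encodes a protein that clusters acetylcholine receptors, was higher in the base (-0.28, adjusted p = 0.046). Slc18a3 was also higher in the base (-0.24, adjusted p = 0.046 in limma). Chat, the enzyme that makes acetylcholine, read 17.9 in the apex and 19.9 in the base, with 3 of its 13 probes well above background.

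Other calcium-binding proteins divided as well. Calb1, a calbindin, was higher in the apex by 2.44 log2 units, Calb2 by 1.72 and the parvalbumin gene Pvalb by 1.29. Their standard errors were 0.35, 0.39 and 0.34, and the apical and basal arrays of Pvalb overlapped. S100b was higher in the base (-0.61), and S100a1 did not pass the test (adjusted p = 0.74). Between apex and middle turn, limma called 0 of these 5 genes for the apex and 1 for the middle turn. Of Calb1's 8 probes, 1 was well above background on all basal arrays.

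Other genes enriched in outer hair cells moved less uniformly than the members. Of 7, 4 were higher in the apex, 2 were higher in the base and 1 did not pass, with a median of 0.50 log2 units. The 2 higher in the base were Sri (-0.30) and Lbh (-0.28). With spike-in scaling the counts were 3, 2 and 2, and the median was 0.01. Strc, encoding stereocilin, which links the stereocilia of outer hair cells, reached 1.87. Ikzf2, the transcription factor helios, differed by 0.50. Mlf1, which did not pass, had 0 of 7 probes well above background on all basal arrays. Each sample held the whole turn, so the part of outer hair cells in these signals was not determined. Of 6 inner hair cell genes, 4 were higher in the apex, namely the synaptic genes Slc17a8 (1.65) and Otof (1.38), Slc7a14 (1.40) and Dnajc5b (1.78). Fgf8 (0.03) and Tbx2 (-0.28, without overlap of apical and basal arrays) did not pass, and the median of the 6 was 1.39. Of the 20 genes shared by both hair cell types, 17 were higher in the apex, 0 were higher in the base (limma, and also 0 at an unadjusted p under 0.05), and the median was 0.91, with Myo7a at 0.78 and Pou4f3 at 1.33.

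Markers of other cells also differed between the turns. Of 10 spiral ganglion neuron genes, 9 were called for apex over base and 1 the other way, with a median of 1.47, and their summed signal ran from 28978 to 38042 in the apex and from 5593 to 24335 in the base. Of 7 Schwann cell genes, 6 were higher in the apex (median 0.72), but with spike-in scaling 0 were (median 0.23) and 1 was higher in the base. Supporting cell genes were mixed, with 5 of 11 up in apex and 4 up in base. Of 9 genes of the stria vascularis, 8 were higher in the base (median -0.55, summed signal 51625 to 59862 in the apex and 77091 to 97142 in the base), and all 5 fibrocyte genes were higher in the base (median -0.42, summed signal 264761 to 288306 in the apex and 518985 to 582830 in the base). Of 6 red blood cell and 3 vestibular genes, 0 were called by limma, with 1 of each at an unadjusted p under 0.05, while 1 of 7 bone and 2 of 6 skeletal muscle genes were higher in the base. The part of tissue composition in the differences of the members was not tested. The comparison with hair cell genes is not such a test, since its outcome depended on the genes chosen as the reference. Spike-in scaling also moved the calls of the efferent synapse genes to 2 for apex over base and 7 the other way, and those of the shared hair cell genes to 12 and 3. With it, 3 of the shared hair cell genes (Cdh23, Lhx3 and Tmie), Ric3, Tmem35 and the Schwann cell gene Mbp turned to the other direction, but the 4 members did not. Quantile normalization turned only the supporting cell gene Fbxo2, and scaling to the median turned none of these lists' called genes.

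**Figure D4:**
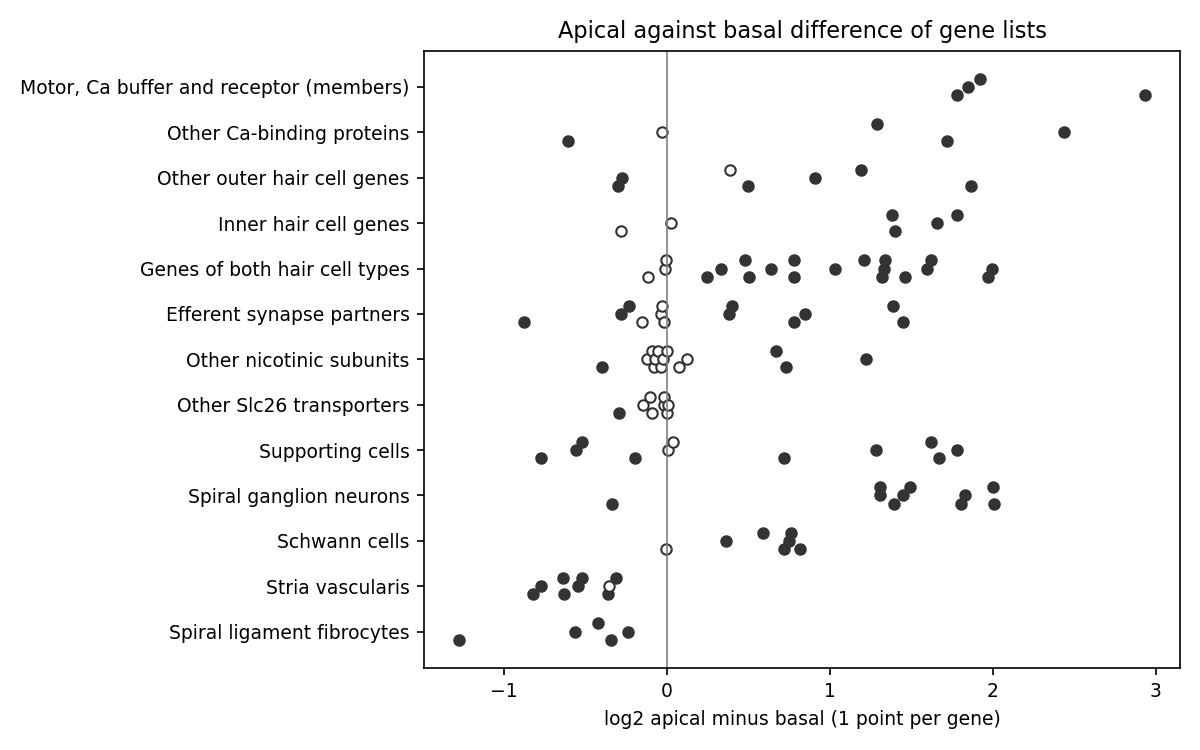
Apical minus basal difference (log2, horizontal axis) of the members and of 12 gene lists, 1 point per gene. Filled points passed the test (limma, adjusted p under 0.05) and open points did not. The members lie between 1.78 and 2.94, the other Slc26 transporters close to 0 (median -0.06, or -0.54 with spike-in scaling), and the stria vascularis and fibrocyte genes below 0.

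Genes whose pattern over the 12 arrays was closest to that of each member were found by the root mean square difference of log2 values after centring each gene on its own mean, among 15136 detected genes. For Slc26a5 the closest were Kcna10 (0.23 log2 units), Apoa4, Apoc3, Robo2 and Agr3. For Ocm they were Slitrk6 (0.12), Strc, Smpx, Grxcr2 and Tekt1, and for Chrna9 they were Anks1b (0.13), Strc, Slc17a8, Tox and Hdc. For Chrna10 they were Tekt1 (0.15), Tox, Hdc, Strc and Dytn. Strc thus stood among the 5 closest genes of 3 members. Chrna9 and Chrna10 were each near the front of the other's list, at positions 7 and 6, with a distance of 0.18, while Slc26a5 lay farther from the other members, at 0.45 to 0.55. The distance depends on the size of a difference as well as its shape. Chrna9 values here include probe 328, which was level across the turns. Distances of Chrna9 without that probe were not determined.

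The upstream sequences of the members are shown because the 4 genes moved together between the turns. RefSeq entries of build GRCm38.p6 were found for all 4, and the 250 bases before each gene's start are given 5′ to 3′, with each match of the E-box letters CANNTG, a pattern that is the same on both strands, in capitals.
Slc26a5, chr5:21865605-21865854, minus strand: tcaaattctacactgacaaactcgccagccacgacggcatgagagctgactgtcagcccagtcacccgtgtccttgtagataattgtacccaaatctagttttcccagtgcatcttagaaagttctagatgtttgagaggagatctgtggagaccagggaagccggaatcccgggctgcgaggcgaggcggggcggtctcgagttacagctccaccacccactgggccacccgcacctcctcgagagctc
Ocm, chr5:144050610-144050859, minus strand: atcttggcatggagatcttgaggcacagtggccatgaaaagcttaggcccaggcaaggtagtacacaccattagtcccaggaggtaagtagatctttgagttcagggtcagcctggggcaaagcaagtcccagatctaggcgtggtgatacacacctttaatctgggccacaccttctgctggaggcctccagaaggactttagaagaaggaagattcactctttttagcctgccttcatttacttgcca
Chrna9, chr5:65966874-65967123, plus strand: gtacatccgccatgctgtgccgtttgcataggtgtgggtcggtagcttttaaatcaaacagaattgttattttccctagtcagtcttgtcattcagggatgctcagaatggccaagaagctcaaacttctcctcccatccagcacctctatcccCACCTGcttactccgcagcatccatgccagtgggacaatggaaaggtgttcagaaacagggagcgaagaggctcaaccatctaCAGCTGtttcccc
Chrna10, chr7:102116714-102116963, minus strand: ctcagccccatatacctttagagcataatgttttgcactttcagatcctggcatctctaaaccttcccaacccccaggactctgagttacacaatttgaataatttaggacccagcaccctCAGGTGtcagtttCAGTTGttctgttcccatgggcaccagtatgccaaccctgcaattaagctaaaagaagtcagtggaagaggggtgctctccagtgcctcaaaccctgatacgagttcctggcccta
CANNTG matched at 2 places each before Chrna9 and Chrna10 and at none before Slc26a5 and Ocm, and 66.2% of 32841 RefSeq promoters of the same length hold at least 1 match. The other 3 motifs were searched on both strands. GGGCGG matched once before Slc26a5 (32.7% of promoters hold it), TGGGAA once before Slc26a5 and at 2 places before Chrna10 (21.6%), and TATAAA before none of the 4 (12.4%). No motif of these was found before all 4 genes. The GC content of these windows ran from 48.0% for Chrna10 to 56.0% for Slc26a5, against a median of 52.4% over all promoters.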

How the data were processed

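Total RNA (25 ng per sample) of cochlear turns was labeled with Cy3 and hybridized to exon arrays, 4 per turn, on 3 slides. The deposited values were fluorescence intensities that the authors made with Agilent Feature Extraction 10.7.3.1, with background subtracted and no normalization between arrays. The deposited value table held the same 2170560 values. Probe positions refer to mm9.

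Control spots (7914 of 180880 per array) and 622 spots that the software marked as outliers on at least 1 array were left out, which removed 119 probes. Each array was brought to a common 75th percentile (534 to 722 before scaling), values were log2 transformed, repeated spots were averaged, and the probes of a gene name were averaged, with no filter on low signals. Turns were compared over all genes with limma 3.58.1 in R 4.3.3 (lmFit, eBayes, Benjamini-Hochberg adjustment, adjusted p under 0.05), and as a second rule with the moderated F test and a 2-fold limit. Differences within arrays were tested with two-sided exact permutation tests over 70 splits. The members and gene lists were chosen with earlier results of these data known. Genes were named as members, as genes of the lists of relatives, partners and hair cells by size of difference or role, or as the 5 closest in pattern to a member, and lists of other cells were summarized. A gene of the outer hair cell list is not reported here. Motif and promoter counts used RefSeq sequences of GRCm38.p6. The gene-level test was tested on simulated data.

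Alternatives were quantile, median and spike-in scaling, limma's normexp (offset 50), the linear mean and the median of probes, filters on dim probes, 16 added to each signal, flagged probes kept, the deposited table, other model options, the arrays of 2 turns only, the sample number as a block, each array left out, and, chosen after seeing the data, Chrna9 without its probe at transcript position 328 and other hair cell references. No 2 arrays held identical values.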

Additional observations from a re-analysis of the deposited data

Results flagged for a closer look

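Chrna9 in the middle turn was the 1 result of 15 groups of 4 arrays in which a single array stood far from the others. Replicate 2 read 139.06 and the nearest array 174, and this gap made up 0.957 of the group's whole range. Among the values of single probes, 6 of 93 groups held such an array. Chance gives about 1 in 20. Without that array, the apex exceeded the middle turn by 0.50 log2 units in Chrna9, and the call was kept.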

How the results depend on the processing

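The apical to basal and middle to basal differences of all 4 members kept their direction and call under every alternative run. Over the alternatives other than leaving out an array, the apical to basal fold ran from 3.39 to 7.65 for Slc26a5, 2.70 to 4.36 for Ocm, 1.56 to 3.44 for Chrna9 and 1.99 to 5.14 for Chrna10, and the middle to basal fold from 2.37 to 4.70, 2.17 to 2.78, 1.27 to 2.30 and 1.67 to 3.66. Scaling to the median moved the median of all genes to -0.15 log2 units between apex and base, and to -0.12 between apex and middle turn, and spike-in scaling moved it to -0.52, -0.28 and, between middle turn and base, -0.23. The apical to middle differences were less stable. Slc26a5 kept 0.70 log2 units but lost its call with unmoderated contrasts (adjusted p = 0.060) and with the sample number as a replicate block (adjusted p = 0.061), and it ran from 0.61 to 0.80 with single arrays left out. Ocm gained a call with quantile normalization (0.65, adjusted p = 0.038), with probes well above background on all arrays (0.53, adjusted p = 0.048) and with only the arrays of the 2 turns (0.53, adjusted p = 0.020), and it ran from 0.46 to 0.60 with single arrays left out. Chrna9 lost its call with the median of probes (0.35, adjusted p = 0.066) and Chrna10 with probes well above background on all arrays (0.36, adjusted p = 0.072).

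Between members, from apex to base and by exact permutation tests, Slc26a5 minus Ocm turned to -0.13 with normexp. Ocm minus Chrna10 became 0.44 with quantile normalization, 0.90 with normexp, -0.47 with the linear mean, -0.034 with the median of probes, -0.12 with probes well above background on all arrays and 0.43 with 16 added. Ocm minus Chrna9 became 1.00 with normexp, 1.26 with the linear mean, 0.96 with the median, 0.66 with bright probes only, 0.54 with 16 added and -0.31 without the probe at position 328. Chrna9 minus Chrna10 became -0.10, -1.72, -0.99 and -0.77 with the first 4 of these and 0.38 without that probe. Chrna9 minus the hair cell genes was -0.13 with the linear mean and 0.0012 with the median. With Lhfpl5 as the reference, Ocm, Chrna9 and Chrna10 gave 0.30, 0.16 and 0.23.

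The labels do not tie the sample numbers of different turns to 1 mouse, and the data leave this unsettled. Deviations of same-numbered samples correlated at -0.037 to 0.23 (mean 0.095), over 0.1 in 6 of 12 pairs, against a mean of -0.031 and 2 of 36 for different numbers. A sample correlated best with its own number in 15 of 24 comparisons with another turn, each with 4 arrays to choose from. Because the labels give no pairing, the block was run only as an alternative, and the main p-values take no account of a pairing. The block raised the genes called for middle turn over apex from 1484 to 2260 and changed no member's call but that of Slc26a5. Genes called for apex over base numbered 3436, against 2270 with median scaling and 775 with spike-in scaling, and for base over apex 4209, against 14334 with spike-in scaling. For apex over middle turn the count was 862, against 541 with normexp, 213 with spike-in scaling, and 431 (without apical replicate 2) to 955 (without middle replicate 3). For middle turn over apex it was 2881 with median scaling, 942 with the median of probes, 7717 with spike-in scaling, and 534 (without apical replicate 2) to 2581 (without middle replicate 3). For middle turn over base it was 2270, against 754 with spike-in scaling and 1489 (without basal replicate 2) to 3167 (without middle replicate 3). For base over middle turn it was 1800, against 2859 with median scaling, 6574 with spike-in scaling, and 1132 (without middle replicate 1) to 1969 (without basal replicate 3). The causes were not tested. Signal over background limits Slc26a5, Chrna9 and Chrna10 in the base, where 10 of 17, 2 of 5 and 3 of 5 probes were not well above background on all arrays.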
